A study of Mus musculus with 9 samples.

Results

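The 38 genes described here encode the actin and myosin machinery of mouse embryonic fibroblasts, or are well known targets of the pathways that read its state. They were chosen by gene name, each matched 1 gene ID, and they are 38 of the 54986 gene IDs measured. Earlier results of these data were known at that choice, so counts of these genes beside those of all genes are a description only. By role, 15 are isoforms typical of smooth or other muscle, 18 belong to the general cytoskeleton of most cells, and 5 are Srf and targets of YAP and SRF. Total RNA was sequenced from primary C57BL/6 fibroblasts in 3 groups of 3 libraries: Zscan4f overexpression, Zscan4f3A overexpression and control. All 9 libraries, control included, carry the label D4-OSKM-2ndMEFs, OSKM being the usual abbreviation for the reprogramming factors Oct4, Sox2, Klf4 and Myc, so no group without OSKM was measured. The control titles name no overexpressed gene and no empty vector, and neither the meaning of D4 nor the sequence of the 3A form is given in the sources used here. Zscan4f encodes a zinc finger protein known from the early mouse embryo and embryonic stem cells. Nothing in the labels says that the libraries of a group came from separate cultures, so p-values measure the spread between these libraries, which may be technical.

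Contractile force in a cell comes from myosin II motors pulling on actin filaments, which tropomyosins coat, alpha-actinins and filamins crosslink, and calponins and transgelins bind along their length. Smooth muscle and fibroblasts with a contractile, myofibroblast-like character make special isoforms of these proteins, such as alpha smooth muscle actin and smooth muscle myosin, beside the isoforms found in most cells. Linked transcriptional systems read the state of actin: SRF with its cofactors of the MRTF and myocardin family binds the CArG box, and YAP and TAZ act through TEAD proteins, with Ctgf and Cyr61 among their best known targets.

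Aligned sequence, estimated from the deposited coverage and FPKM values, was 7.48 to 8.39 gigabases in the Zscan4f libraries, 3.31 to 8.38 in the Zscan4f3A libraries and 6.60 to 8.26 in the control libraries. Zscan4f3A replicate 3 had the least, and 22795 genes above 0 in it against up to 25443 in another library. Expression is given in TPM, a level per transcript length that is scaled to the same total in each library. Zscan4f itself stood at 570.0, 565 and 558 TPM in the Zscan4f libraries, 827, 836 and 654 TPM in the Zscan4f3A libraries and 0.330, 0 and 0.960 TPM in the control libraries, high where the labels say so. Its near-identical neighbours Zscan4c, Zscan4d and Zscan4e, which can share its reads, were also high in the overexpressing libraries but were listed at 0 in Zscan4f3A replicate 3. All 15 fibroblast markers examined passed the filter for expression. Their summed levels were 16075 to 16288 TPM in Zscan4f, 16056 to 16534 TPM in Zscan4f3A and 16334 to 16400 TPM in control libraries. In the test described below, 3 of them were higher and 8 lower in Zscan4f than in control, beside 8.74% and 9.71% of all genes. The similar sums thus hold opposite changes, with Col1a2 and Dcn among the higher markers and Col1a1, Fn1 and Vim among the lower. Of 17 markers of mature smooth muscle and pericytes, 9 passed, several of which are also among the 38 genes. The other 8 stayed under 1 TPM, among them Myocd, the master regulator of smooth muscle, and Higd1b, a pericyte gene listed at 0 in every library. The skeletal muscle regulator Myod1 was likewise listed at 0 throughout.

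Zscan4f overexpression was accompanied by lower levels of 7 of the 15 muscle isoforms and of the YAP targets Ctgf and Cyr61. Higher levels were seen for 4 general cytoskeletal genes, Tagln2, Cnn2, Tpm3 and Cnn3, and a lower level for Myh10 of the same group. Of these differences, those of Cyr61 and Cnn3 did not pass in some of the other settings tried. In all, 14 of the 38 genes passed the test against control, 4 higher and 10 lower, where a gene passed at a Benjamini-Hochberg adjusted p under 0.05 in limma over the 15837 genes expressed at 1 TPM or more in at least 3 libraries. Over all genes tested, 18.5% passed in this comparison, 8.74% higher and 9.71% lower. None of the 38 genes passed in Zscan4f3A against control, a comparison in which 0.0316% of all genes passed, 0.0189% higher and 0.0126% lower. Zscan4f against Zscan4f3A gave 3 higher and 9 lower members, beside 15.1% of all genes, 7.48% higher and 7.64% lower. The 2 comparisons with Zscan4f share its libraries, and 11 genes passed in both with the same sign. They were Tagln2 and Cnn2 higher, and Acta2, Actg2, Tagln, Cnn1, Myh11, Tpm2, Flnc, Myh10 and Ctgf lower. How many of all genes passed in both was not counted, so the 11 are a description only. Tpm3, Cnn3 and Cyr61 passed against control alone, Myh9 passed against Zscan4f3A alone, and the other 23 passed in neither. In bulk RNA, fewer contractile cells and less of a transcript in each cell cannot be told apart.

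**Figure D1:**
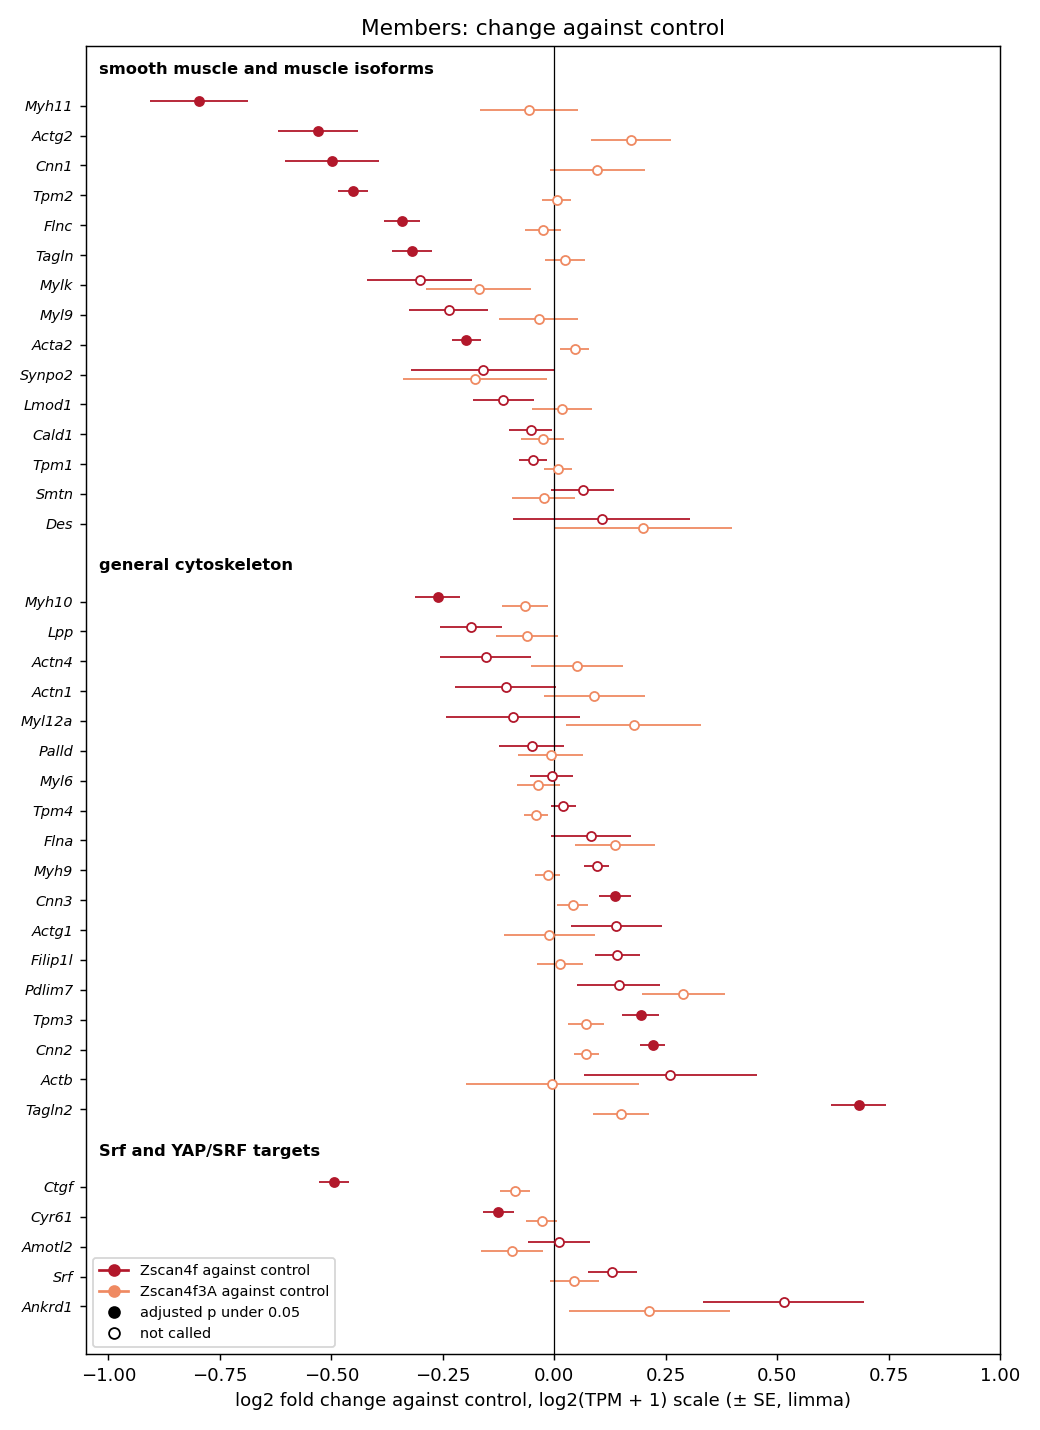
Log2 fold change of each of the 38 genes in Zscan4f (dark red) and Zscan4f3A (orange) libraries against control libraries, on the log2(TPM + 1) scale, with bars for the limma SE; filled points had an adjusted p under 0.05. The filled points are all Zscan4f, with 7 muscle isoforms, Myh10, Ctgf and Cyr61 left of 0 and Tagln2, Cnn2, Tpm3 and Cnn3 right of it.

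Promoters of 33 of the 38 genes were found in a RefSeq table for GRCm38.p6 that gives 250 bases before and 50 bases after each start it lists. Tagln, Actg2, Myh11, Actb and Ctgf were not matched. For some genes, such as Mylk and Flna, the listed start lies inside the gene, so other starts were not searched. They were searched on both strands for exact matches of the CArG box, the site of SRF (CC, then 6 bases that are each A or T, then GG), and for the TEAD motif GGAATG, which reads CATTCC on the other strand. A CArG box lay in a promoter of 6 of the 33 genes (18.2%), beside 1.81% of 27025 genes in the table. The TEAD motif lay in 17 of 33 (51.5%), beside 16.6% of genes in the table. Counted per promoter, since some genes have several starts, the TEAD motif was in 43.9% of the members' and 14.7% of all promoters. In the 100 bases nearest the start alone, the TEAD motif lay in 3 of 33 genes (9.09%), beside 5.10% of genes in the table, and a CArG box in 1 of 33 (3.03%), beside 0.485%. The genes with a CArG box were Actg1, Cnn2, Filip1l, Myl6, Myl9 and Srf, none of which was among the lower genes. Of the 6 genes that were lower in Zscan4f than in control and had a promoter in the table, 4 held the TEAD motif and 0 a CArG box; of the 4 higher genes, 1 held the TEAD motif and 1 a CArG box; and of the 23 others, 12 held the TEAD motif and 5 a CArG box. Known targets of SRF and YAP are among the 38 by choice, so their higher shares than in the table are a description only. A match describes these letters in this window and does not show binding. Nor does the lack of an exact match show that a gene has no SRF site. The Acta2 promoter printed below holds ccctatatgg and ccttgtttgg, each 1 base away from the CArG pattern. The lower genes Tagln, Actg2, Myh11 and Ctgf had no promoter in the table and were not searched.

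The promoters of 4 genes on which the results turn are printed 5′ to 3′ on the gene's strand, with motif matches in capitals. Acta2, an abundant muscle isoform that was lower, has 1 TEAD motif; Tagln2, the general cytoskeletal gene with the largest rise, has 2; Cnn2, also higher, has 1 CArG box; and Srf, whose own level did not pass the test, has 2 CArG boxes.
Acta2, chr19:34255324-34255623, - strand: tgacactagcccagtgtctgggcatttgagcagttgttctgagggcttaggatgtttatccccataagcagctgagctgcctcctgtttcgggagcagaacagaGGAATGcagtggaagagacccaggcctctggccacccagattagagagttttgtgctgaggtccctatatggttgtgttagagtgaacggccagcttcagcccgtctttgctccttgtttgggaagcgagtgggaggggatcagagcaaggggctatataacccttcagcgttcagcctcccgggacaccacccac
Tagln2, chr1:172499996-172500295, + strand: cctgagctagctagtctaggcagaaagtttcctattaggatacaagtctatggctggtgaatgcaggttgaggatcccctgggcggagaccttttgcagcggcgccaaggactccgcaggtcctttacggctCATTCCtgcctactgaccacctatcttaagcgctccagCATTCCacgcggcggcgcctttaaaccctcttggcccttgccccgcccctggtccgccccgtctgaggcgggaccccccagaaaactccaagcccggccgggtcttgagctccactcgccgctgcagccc
Cnn2, chr10:79988350-79988649, + strand: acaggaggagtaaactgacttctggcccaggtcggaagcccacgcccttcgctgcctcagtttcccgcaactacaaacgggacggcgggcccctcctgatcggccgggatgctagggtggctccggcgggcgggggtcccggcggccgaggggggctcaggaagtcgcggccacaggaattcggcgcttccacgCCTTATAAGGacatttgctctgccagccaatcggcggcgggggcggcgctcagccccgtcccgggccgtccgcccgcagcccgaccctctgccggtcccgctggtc
Srf, chr17:46556113-46556412, - strand: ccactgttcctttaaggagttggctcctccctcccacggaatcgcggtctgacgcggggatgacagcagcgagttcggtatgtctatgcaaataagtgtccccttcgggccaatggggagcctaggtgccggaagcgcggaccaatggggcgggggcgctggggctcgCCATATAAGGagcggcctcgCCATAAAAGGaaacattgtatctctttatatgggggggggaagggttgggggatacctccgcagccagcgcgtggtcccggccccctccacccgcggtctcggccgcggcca
Counted from the start at position 1, the first base of the motif is at -146 in Acta2, at -118 and -80 in Tagln2, at -56 in Cnn2 and at -82 and -62 in Srf.

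Among the muscle isoforms, 7 of 15 were lower in Zscan4f than in control libraries and 0 higher, beside 9.71% and 8.74% of all genes. Their median log2 fold change was -0.24, beside -0.003 over all genes, and 13 of the 15 values were negative. Their summed level was 3752.5 ± 74.1 TPM in Zscan4f, 4368 ± 42.6 TPM in Zscan4f3A and 4309 ± 57.1 TPM in control libraries (SD, n = 3 each, as for every ± on a level or share). Acta2 alone, alpha smooth muscle actin (ENSMUSG00000035783.8, chr19:34241090-34255336, minus strand), contributed the most to that sum.

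Acta2 stood at 1318, 1362 and 1374 TPM in Zscan4f, 1606, 1601 and 1590.2 TPM in Zscan4f3A and 1524, 1619 and 1508 TPM in control libraries. All 3 Zscan4f libraries lay below all 6 others, between which the ranges overlapped. The fall was small, with a log2 change from control of -0.20 (SE 0.03, limma adjusted p = 0.00359), or 12.8% on the TPM scale. Actg2, gamma smooth muscle actin of gut and other visceral muscle (ENSMUSG00000059430.14, chr6:83512905-83536265), stood at 94.5, 111 and 108 TPM in Zscan4f, 169, 159 and 183 TPM in Zscan4f3A and 140.2, 169 and 145 TPM in control libraries. Zscan4f was again below every other library, with log2 fold changes of -0.53 (SE 0.09, adjusted p = 0.00389) against control and -0.70 against Zscan4f3A (adjusted p = 0.00131).

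Tagln, or SM22 alpha, an actin-binding protein and early marker of smooth muscle (ENSMUSG00000032085.5, chr9:45929619-45936058), stood at 443, 490.2 and 489 TPM in Zscan4f, 604, 616 and 583 TPM in Zscan4f3A and 589, 607 and 578 TPM in control libraries. The Zscan4f libraries did not overlap the others, and the log2 fold change against control was -0.32 (SE 0.05, adjusted p = 0.00157). Tagln overlaps Pcsk7 and RP23-228B2.5, genes on the opposite strand expressed at 6.89% and 5.13% of its level. The sources used here do not say whether strand was used in counting. Cnn1, the smooth muscle calponin, which restrains myosin's pull on actin (ENSMUSG00000001349.5, chr9:22099216-22109630), stood at 15.9, 16.9 and 16.2 TPM in Zscan4f, 24.3, 22.2 and 29.6 TPM in Zscan4f3A and 21.7, 25.99 and 23.04 TPM in control libraries. The 3 Zscan4f values lay close together and below the rest, with a log2 change from control of -0.50 (SE 0.11, adjusted p = 0.0119).

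Tpm2, beta tropomyosin, prominent in muscle (ENSMUSG00000028464.16, chr4:43514711-43523765), had the smallest adjusted p of the muscle isoforms in both comparisons with Zscan4f. It stood at 209.5, 209.6 and 199 TPM in Zscan4f, 289, 281 and 280.0 TPM in Zscan4f3A and 277, 288 and 281 TPM in control libraries. The Zscan4f mean was 26.9% below that of control, with log2 fold changes of -0.45 (SE 0.03, adjusted p = 5.25e-05) against control and -0.46 (adjusted p = 7.4e-05) against Zscan4f3A. Flnc, the filamin of muscle Z-discs (ENSMUSG00000068699.12, chr6:29433256-29461883), stood at 45.7, 43.97 and 45.4 TPM in Zscan4f, 57.5, 57.04 and 54.5 TPM in Zscan4f3A and 56.5, 58.6 and 56.9 TPM in control libraries, with a log2 change from control of -0.34 (SE 0.04, adjusted p = 0.000609). Myh11, the smooth muscle myosin heavy chain and a marker of mature smooth muscle (ENSMUSG00000018830.10, chr16:14194535-14291372), was scarce, at 1.84, 1.47 and 1.82 TPM in Zscan4f, 3.26, 3.72 and 3.58 TPM in Zscan4f3A and 3.35, 4.10 and 3.67 TPM in control libraries. It had the largest fall of the 38 genes, 53.9% on the TPM scale and -0.80 as log2 fold change (SE 0.11, adjusted p = 0.00134), a scale that understates changes of low genes.

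**Figure D2:**
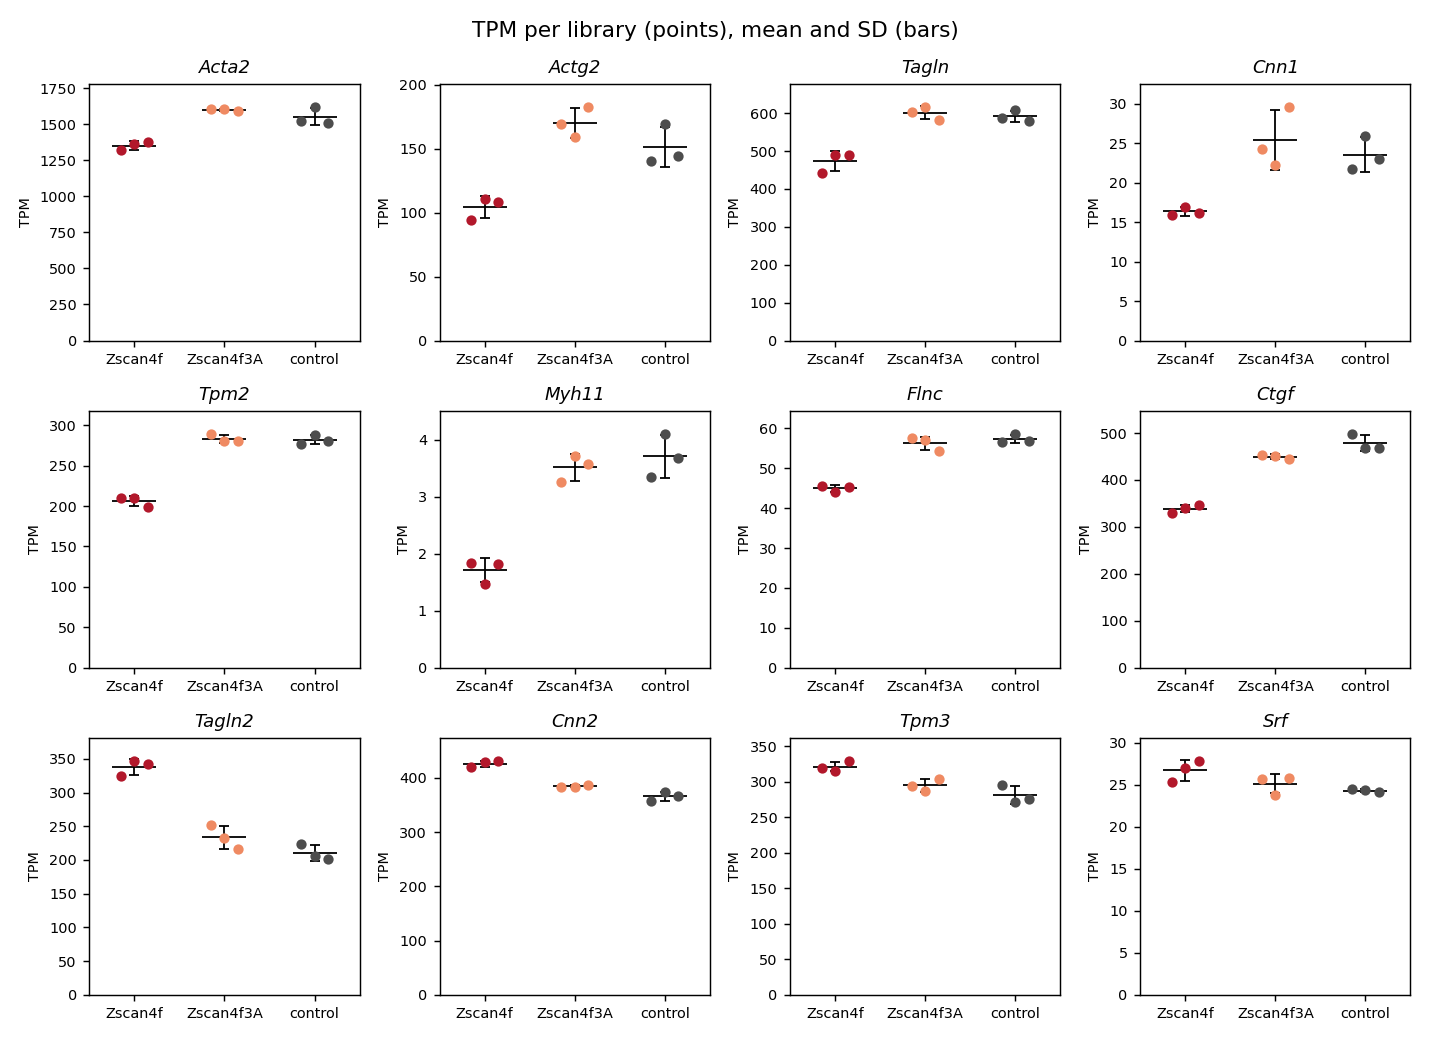
TPM of 12 of the genes in each library (points), with the mean and SD of each group (bars); each panel has its own axis from 0. For Acta2, Actg2, Tagln, Cnn1, Tpm2, Myh11, Flnc and Ctgf the 3 Zscan4f points lie below the 6 others, and for Tagln2, Cnn2 and Tpm3 above them, while Srf shows small differences.

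The other 8 muscle isoforms did not pass the test in any comparison. Myl9, the regulatory light chain of smooth muscle and nonmuscle myosin II, stood at 282, 288 and 304 TPM in Zscan4f, 359.7, 346 and 302 TPM in Zscan4f3A and 321, 323 and 390.5 TPM in control libraries. Its log2 difference from control was -0.24 (95% confidence interval -0.44 to -0.04, adjusted p = 0.103), of a size with that of Acta2 but with a wider spread. Mylk, the kinase that phosphorylates the light chain to start contraction, averaged 3.999 ± 0.344 TPM in Zscan4f, 4.48 ± 0.381 TPM in Zscan4f3A and 5.19 ± 0.798 TPM in control libraries, with a difference from control of -0.30 (adjusted p = 0.117). Tpm1 and Cald1 bind along actin filaments and were abundant, and their intervals against control were narrow: -0.12 to 0.02 for Tpm1, at 523 ± 14.1 TPM in Zscan4f and 539.9 ± 2.73 TPM in control libraries, and -0.16 to 0.06 for Cald1, at 668 ± 34.4 and 693 ± 27.5 TPM in the same groups. Both genes give rise to muscle and nonmuscle splice forms, which gene-level values do not separate. Smtn and Lmod1, a smooth muscle actin-binding protein and an actin filament nucleator, had log2 differences from control of 0.06 (interval -0.10 to 0.23) and -0.11 (interval -0.27 to 0.04). Synpo2 and Des, a Z-disc protein and the muscle intermediate filament desmin, were near 1 to 2 TPM in most libraries, and their intervals against control were wide, at -0.53 to 0.21 for Synpo2 and -0.35 to 0.56 for Des.

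Markers of smooth muscle and of other cell types differed beside the muscle isoforms. The counts that follow stand beside 8.74% of all genes tested that were higher in Zscan4f than in control and 9.71% that were lower. Summed smooth muscle and pericyte markers were 288 to 304 TPM in Zscan4f, 356 to 400.4 TPM in Zscan4f3A and 340 to 369 TPM in control libraries, and of the 9 tested 1 was higher and 5 lower in Zscan4f than in control. That list holds Actg2, Cnn1, Myh11, Lmod1, Smtn and Synpo2 of the 38 genes; outside those, Mcam and Notch3 were lower and Cspg4 higher. Summed epithelial markers were 330.3 to 335 TPM in Zscan4f, 153 to 158 TPM in Zscan4f3A and 139 to 143 TPM in control libraries, and 10 of 15 were tested, of which 8 were higher and 1 lower. Epithelial genes such as Krt8, Krt14 and Dsp made up most of that sum. Endothelial markers summed to 48.4 to 50.03 TPM in Zscan4f, 37.6 to 41.9 TPM in Zscan4f3A and 39.5 to 42.0 TPM in control libraries, with 1 higher and 1 lower of 4 tested. Macrophage markers summed to 23.1 to 26.7 TPM in Zscan4f, 16.7 to 18.6 TPM in Zscan4f3A and 17.2 to 19.5 TPM in control libraries, also with 1 higher and 1 lower of 4. Cardiac muscle markers, 5 of 11 tested and 1 of them lower, summed to 21.5 to 23.98 TPM in Zscan4f, 33.6 to 34.2 TPM in Zscan4f3A and 33.6 to 40.1 TPM in control libraries. Of 16 skeletal muscle markers 1 was tested and did not pass, and 5 were listed at 0 in every library. The part of such cells in the values of the contractile genes was not tested.

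In the general cytoskeleton, 4 of 18 genes were higher in Zscan4f than in control libraries and 1 was lower, beside 8.74% and 9.71% of all genes. The median log2 fold change of the 18 was 0.09. The group's summed level was 9857 ± 221 TPM in Zscan4f, 9673 ± 134 TPM in Zscan4f3A and 9457 ± 66.8 TPM in control libraries. Tagln2, transgelin-2, the relative of Tagln found in many cell types (ENSMUSG00000026547.15, chr1:172500047-172507380), rose most. It stood at 324, 346 and 342 TPM in Zscan4f, 251, 232 and 217 TPM in Zscan4f3A and 224, 206 and 201 TPM in control libraries. Zscan4f lay above every other library, its mean 60.6% above that of control, with log2 fold changes of 0.68 (SE 0.06, adjusted p = 0.000157) against control and 0.53 (adjusted p = 0.000830) against Zscan4f3A. Tagln and Tagln2 thus moved in opposite directions in the same libraries.

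Cnn2, the calponin of nonmuscle cells (ENSMUSG00000004665.10, chr10:79988584-79996062), stood at 420.3, 428 and 431 TPM in Zscan4f, 384, 384 and 387 TPM in Zscan4f3A and 357, 374 and 367 TPM in control libraries. The 3 groups did not overlap, and the log2 fold change was 0.22 against control (SE 0.03, adjusted p = 0.000852) and 0.15 against Zscan4f3A (adjusted p = 0.00814). Cnn3, the third calponin, stood at 388, 393 and 398 TPM in Zscan4f, 374, 367 and 363 TPM in Zscan4f3A and 366, 341 and 366 TPM in control libraries. Its rise against control was small, at 0.14 (SE 0.03, adjusted p = 0.0276), and the adjusted p lay between 0.0559 and 0.0944 without control replicate 2 or any 1 of the Zscan4f libraries. Tpm3, a tropomyosin of nonmuscle filaments and slow muscle, stood at 319, 316 and 329 TPM in Zscan4f, 295, 286 and 304 TPM in Zscan4f3A and 296, 272 and 275 TPM in control libraries. It was 0.19 higher than control on the log2 scale (SE 0.04, adjusted p = 0.0119) and did not pass against Zscan4f3A (0.12, adjusted p = 0.0830).

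The nonmuscle myosin heavy chains differed from control with opposite signs. Myh10, myosin IIB (ENSMUSG00000020900.15, chr11:68691559-68816632), stood at 93.9, 86.1 and 92.6 TPM in Zscan4f, 102, 101 and 111 TPM in Zscan4f3A and 112, 106 and 109 TPM in control libraries. It was lower against control at -0.26 on the log2 scale (SE 0.05, limma adjusted p = 0.00813). Myh9, myosin IIA, the more abundant chain, stood at 478, 475 and 482 TPM in Zscan4f, 447, 438 and 445 TPM in Zscan4f3A and 443, 461 and 439.8 TPM in control libraries. Zscan4f lay above all other libraries by a few percent, and Myh9 passed against Zscan4f3A (0.11, adjusted p = 0.0340) and just missed the threshold against control (0.09, adjusted p = 0.0504). Against control it passed without control replicate 2 or without Zscan4f3A replicate 3, at adjusted p of 0.0367 and 0.0403. It also passed there in 3 of 9 other settings of the limma fit, at adjusted p of 0.0345 to 0.0451. Against Zscan4f3A, the adjusted p of Myh10 (0.0350 with all libraries) lay between 0.0506 and 0.107 without control replicate 1 or 3, any Zscan4f library, or Zscan4f3A replicate 1 or 3. That of Myh9 lay between 0.0507 and 0.108 without control replicate 1, any Zscan4f library, or Zscan4f3A replicate 1 or 2. In other settings of the limma fit, Myh9 did not pass against Zscan4f3A in 6 of 9, at adjusted p of 0.0550 to 0.139. Myh10 did not pass in 3 of 9, at adjusted p of 0.0660 to 0.0782.

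The remaining 12 general genes did not pass in any comparison. Actb and Actg1, the cytoplasmic beta and gamma actins, are nearly identical in protein sequence and have many pseudogenes, so the authors' counting could split their reads. Actb stood at 778, 964 and 962 TPM in Zscan4f, 796, 931 and 562 TPM in Zscan4f3A and 881, 772 and 618 TPM in control libraries. Actg1 stood at 1351, 1156 and 1386 TPM in Zscan4f, 1341, 1080.0 and 1093 TPM in Zscan4f3A and 1120.4, 1126 and 1284 TPM in control libraries. The groups overlapped for both. Their sum was 2199 ± 129 TPM in Zscan4f, 1934 ± 250 TPM in Zscan4f3A and 1934 ± 58.8 TPM in control libraries, and the Zscan4f values lay above those of control with an exact permutation p of 0.1 (two-sided), the smallest that 3 against 3 allows. Myl12a, a nonmuscle regulatory light chain, was variable at 516, 486 and 577 TPM in Zscan4f, 687, 683 and 542 TPM in Zscan4f3A and 708, 479 and 517 TPM in control libraries. Summed with its close copy Myl12b it gave 739 ± 45.4, 848 ± 89.5 and 791 ± 116 TPM in those groups (exact permutation p = 0.6 for Zscan4f against control). Myl6, the essential light chain and the most abundant of the 38, averaged 1878 ± 29.7 TPM in Zscan4f, 1841 ± 105 TPM in Zscan4f3A and 1887 ± 90.03 TPM in control libraries, and its interval against control was -0.12 to 0.10.

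Tpm4, the most abundant tropomyosin here, stood at 719, 725 and 705 TPM in Zscan4f, 684, 702 and 675 TPM in Zscan4f3A and 717, 697 and 705 TPM in control libraries, and its difference from control had a 95% interval of -0.04 to 0.08 on the log2 scale. The alpha-actinins Actn1 and Actn4, which bundle actin filaments, and Pdlim7, an adaptor at such bundles, were all highest in Zscan4f3A replicate 3. Actn4 stood at 1062, 1058 and 1078 TPM in Zscan4f, 1122, 1106 and 1494 TPM in Zscan4f3A and 1156, 1249.5 and 1155 TPM in control libraries. Its difference between Zscan4f and control did not pass (-0.15, adjusted p = 0.365) but did without Zscan4f3A replicate 3, which enters the fit through the shared spread (adjusted p = 0.0129). Actn1 averaged 194 ± 5.09 TPM in Zscan4f, 225 ± 40.8 TPM in Zscan4f3A and 210.2 ± 17.4 TPM in control libraries. Flna, the widely expressed filamin, averaged 730.0 ± 85.6 TPM in Zscan4f, 755 ± 49.01 TPM in Zscan4f3A and 688 ± 53.6 TPM in control libraries, and Palld, a scaffold of actin bundles, 327 ± 19.6, 337 ± 33.7 and 338 ± 5.71 TPM. Neither passed the test.

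Lpp, a focal adhesion protein, averaged 40.5 ± 3.15 TPM in Zscan4f, 44.3 ± 1.99 TPM in Zscan4f3A and 46.2 ± 2.57 TPM in control libraries (log2 difference from control -0.19, adjusted p = 0.103). Filip1l averaged 30.9 ± 0.196 TPM in Zscan4f, 28.2 ± 1.41 TPM in Zscan4f3A and 27.95 ± 0.814 TPM in control libraries (0.14, adjusted p = 0.0953). Both values are uncertain, because Lpp shares its strand and span with RP24-62P21.1, listed at 124% of its level, and Filip1l overlaps Cmss1 on the opposite strand, at 35.9% of its level.

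Of Srf and the YAP and SRF targets, 2 of 5 were lower in Zscan4f than in control libraries and 0 higher, beside 9.71% and 8.74% of all genes. The median log2 fold change of the 5 was 0.01. Ctgf, a secreted matricellular protein and a standard YAP target (ENSMUSG00000019997.11, chr10:24595442-24598683), stood at 331, 339 and 347 TPM in Zscan4f, 454, 451 and 444 TPM in Zscan4f3A and 498, 468 and 469 TPM in control libraries. The Zscan4f values lay far below all others and those of Zscan4f3A just below those of control, with Zscan4f log2 fold changes of -0.49 (SE 0.03, adjusted p = 3.73e-05) against control and -0.41 (adjusted p = 0.000173) against Zscan4f3A. Ctgf had the smallest adjusted p of the 38 genes against control. Cyr61, its close relative, stood at 309, 318 and 329 TPM in Zscan4f, 342, 341 and 339 TPM in Zscan4f3A and 358, 350.2 and 336 TPM in control libraries. The fall against control was -0.13 (SE 0.03, adjusted p = 0.0367). Cyr61 did not pass without control replicate 1 or 2, Zscan4f replicate 1 or 2, or Zscan4f3A replicate 1 or 2, where the adjusted p was 0.0549 to 0.12. It also did not pass in 6 of 9 other settings of the limma fit, at adjusted p of 0.0509 to 0.115.

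Srf itself stood at 25.3, 27.05 and 27.8 TPM in Zscan4f, 25.7, 23.8 and 25.9 TPM in Zscan4f3A and 24.5, 24.3 and 24.1 TPM in control libraries. Its log2 difference from control was 0.13 (95% confidence interval 0.00 to 0.26, adjusted p = 0.148), opposite in sign to those of the muscle isoforms that fell. Ankrd1, a nuclear and sarcomeric ankyrin repeat protein and a YAP target, stood at 2.59, 2.42 and 2.37 TPM in Zscan4f, 1.38, 2.76 and 1.46 TPM in Zscan4f3A and 1.22, 1.43 and 1.62 TPM in control libraries. It was scarce and variable, at a log2 difference from control of 0.51 (adjusted p = 0.0859). Without Zscan4f3A replicate 2, the highest Zscan4f3A value, that adjusted p was 0.0208, and against Zscan4f3A 0.0436 beside 0.308 with all libraries. Amotl2, a junctional protein that binds YAP and is also its target, averaged 143 ± 4.66 TPM in Zscan4f, 133 ± 14.5 TPM in Zscan4f3A and 142 ± 2.60 TPM in control libraries. Its interval for Zscan4f against control was -0.15 to 0.17, and against Zscan4f3A it passed without Zscan4f3A replicate 1 (adjusted p = 0.0256).

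The share of each isoform in its family's summed TPM does not depend on scaling between libraries. Acta2 made up 36.7 ± 1.00% of summed actin TPM in Zscan4f, 43.1 ± 2.74% in Zscan4f3A and 42.4 ± 1.19% in control libraries, and Actg2 2.84 ± 0.206%, 4.60 ± 0.609% and 4.14 ± 0.394% in the same groups. The total of all actins was alike, at 3682 ± 153 TPM in Zscan4f, 3726 ± 250 TPM in Zscan4f3A and 3654.5 ± 70.9 TPM in control libraries. The share of Actb and that of Actg1 were higher on average, at 24.5 ± 2.45% and 35.2 ± 3.01% in Zscan4f against 20.7 ± 3.31% and 32.2 ± 3.20% in control libraries, with overlapping groups.

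Among tropomyosins, Tpm2 made up 11.7 ± 0.343% in Zscan4f, 15.7 ± 0.255% in Zscan4f3A and 15.6 ± 0.433% in control libraries. Tpm3 made up 18.2 ± 0.363% in Zscan4f, 16.3 ± 0.418% in Zscan4f3A and 15.5 ± 0.579% in control libraries, and Tpm4 40.6 ± 0.675%, 38 ± 0.995% and 39.0 ± 0.248%. The share of Tpm1 was 29.6 ± 0.689%, 30.02 ± 0.648% and 29.8 ± 0.391%, with overlapping groups. Summed tropomyosin was 1766 ± 9.18 TPM in Zscan4f, 1808 ± 10.2 TPM in Zscan4f3A and 1809 ± 15.0 TPM in control libraries, so a smaller share of Tpm2 came with larger shares of Tpm3 and Tpm4 and a total that differed little.

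Of the myosin II heavy chains, Myh9 made up 83.6 ± 0.578% in Zscan4f, 80.4 ± 0.682% in Zscan4f3A and 79.8 ± 0.732% in control libraries, and Myh10 15.9 ± 0.545%, 18.9 ± 0.754% and 19.4 ± 0.757%. Myh11 stayed under 1% in all groups. Of the calponins, Cnn1 made up 1.96 ± 0.0561% in Zscan4f, 3.26 ± 0.479% in Zscan4f3A and 3.16 ± 0.312% in control libraries, while summed calponin was 836 ± 10.6 TPM in Zscan4f, 778 ± 4.65 TPM in Zscan4f3A and 747 ± 7.58 TPM in control libraries. Of 17 family shares, 12 did not overlap between Zscan4f and control libraries, 11 between Zscan4f and Zscan4f3A and 1 between Zscan4f3A and control, that of Acta1. Over the TPM of all genes tested, which are levels and not shares, 38.2% of genes did not overlap between Zscan4f and control libraries, 34.8% between Zscan4f and Zscan4f3A and 15.4% between Zscan4f3A and control. With 3 libraries a group, an exact permutation test cannot go below 0.1, and over the 51 tests the lowest adjusted p was 0.2125, so none could pass. Shares within a family are not independent of each other.

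**Figure D3:**
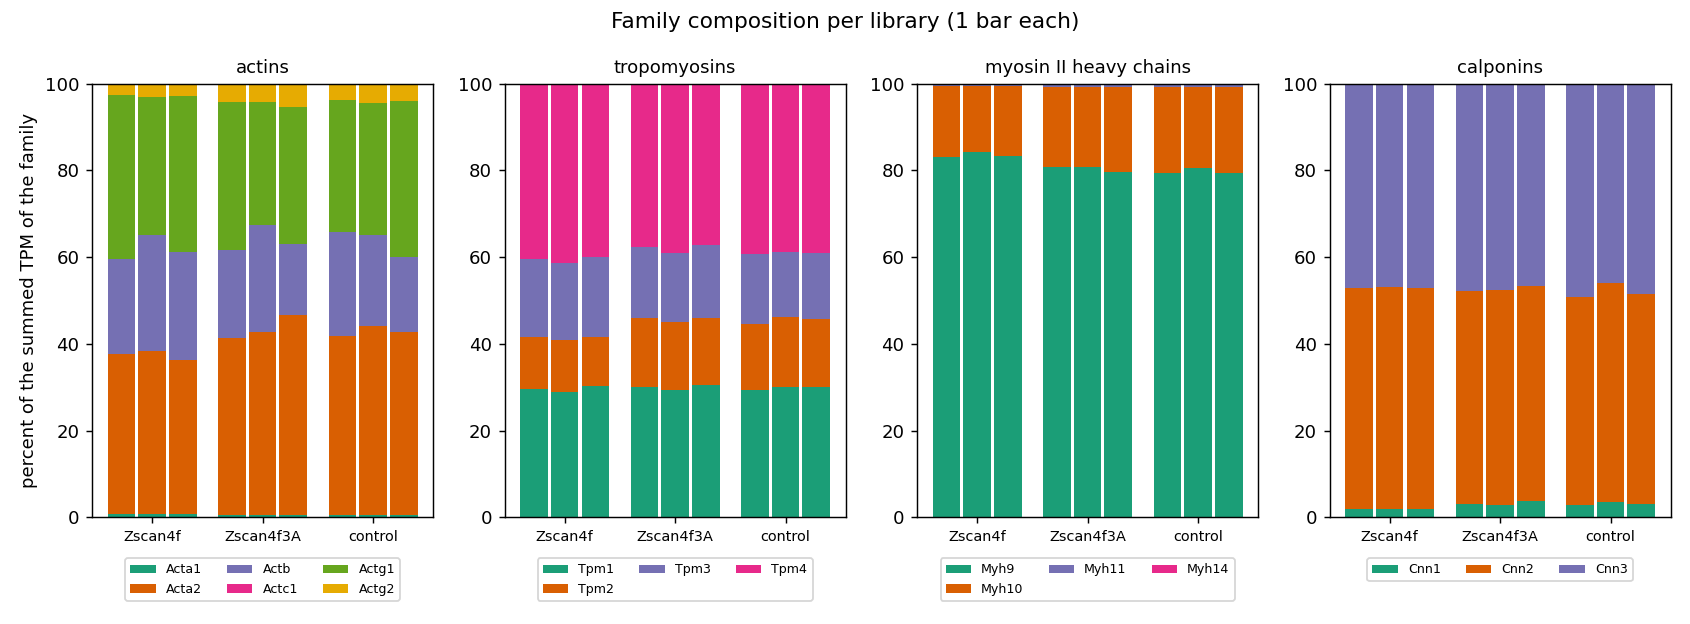
Percent of the summed TPM of 4 families that each gene takes, with 1 bar per library and the 3 libraries of each group side by side. The Acta2 and Actg2 segments of the actins, the Tpm2 segment of the tropomyosins, the Myh10 segment of the myosins and the Cnn1 segment of the calponins are smaller in the Zscan4f bars than in the Zscan4f3A and control bars.

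Among the SRF cofactors and the YAP pathway, 2 of the 28 gene IDs tested were higher and 5 lower in Zscan4f than in control libraries. Over all genes, 8.74% were higher and 9.71% lower. Values before an adjusted p are log2 fold changes of Zscan4f against control here and in the related lists. The TEAD genes themselves moved in both directions: Tead2 averaged 81.5 ± 10.9 TPM in Zscan4f, 61.1 ± 2.84 TPM in Zscan4f3A and 53.3 ± 4.16 TPM in control libraries (0.60, adjusted p = 0.00361). Tead4 averaged 9.77 ± 0.786 TPM in Zscan4f, 7.19 ± 0.805 TPM in Zscan4f3A and 6.50 ± 0.0810 TPM in control libraries (0.52, adjusted p = 0.00553), while Tead3 was lower. Elk3, a ternary complex factor that binds with SRF, averaged 62.7 ± 3.39 TPM in Zscan4f, 79.6 ± 7.07 TPM in Zscan4f3A and 87.3 ± 4.33 TPM in control libraries (-0.47, adjusted p = 0.00238). Sav1, a scaffold of the Hippo kinases that restrain YAP, was also lower, at 61.4 ± 2.51 TPM in Zscan4f, 66.4 ± 1.54 TPM in Zscan4f3A and 74.2 ± 1.57 TPM in control libraries (adjusted p = 0.00296), as were Vgll4 and Ptpn14. Mkl1 and Mkl2, which encode MRTF-A and MRTF-B, Yap1, and Wwtr1, which encodes TAZ, did not pass, with adjusted p between 0.142 and 0.231.

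SRF targets outside the 38 genes changed in both directions, with 5 of 24 tested gene IDs higher and 7 lower in Zscan4f than in control libraries, beside 8.74% and 9.71% of all genes, and a median of -0.05. Csrp1 and Csrp2, LIM proteins of smooth muscle, again moved apart: Csrp1 averaged 271 ± 5.09 TPM in Zscan4f, 339 ± 4.14 TPM in Zscan4f3A and 346 ± 13.1 TPM in control libraries (-0.35, adjusted p = 0.000229). Csrp2 averaged 308 ± 10.3 TPM in Zscan4f, 225 ± 12.7 TPM in Zscan4f3A and 215 ± 4.16 TPM in control libraries (0.51, adjusted p = 0.000154). Acta1, the skeletal muscle actin, was higher at 27.1 ± 1.49 TPM in Zscan4f, 21.7 ± 1.27 TPM in Zscan4f3A and 18.5 ± 1.16 TPM in control libraries (adjusted p = 0.00122), opposite to Acta2 and Actg2. The immediate early gene Egr1 was lower at 28.3 ± 1.02 TPM in Zscan4f, 34.4 ± 0.691 TPM in Zscan4f3A and 39.3 ± 1.15 TPM in control libraries (adjusted p = 0.000288).

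YAP targets outside the 38 genes were likewise mixed, with 3 of 19 higher and 6 lower, beside the same 8.74% and 9.71% of all genes, and a median of -0.14. Igfbp3, an IGF-binding protein, averaged 445 ± 7.63 TPM in Zscan4f, 771 ± 10.9 TPM in Zscan4f3A and 923 ± 9.24 TPM in control libraries (adjusted p = 1.58e-07). It also passed as lower in Zscan4f3A than in control (-0.26, adjusted p = 0.0179), the single gene of these lists to do so. Crim1, a transmembrane protein that binds BMPs, averaged 37.6 ± 0.490 TPM in Zscan4f, 51.7 ± 0.598 TPM in Zscan4f3A and 58.8 ± 1.18 TPM in control libraries (-0.63), and Nt5e, the ectonucleotidase CD73, 2.47 ± 0.422, 8.83 ± 0.663 and 11.7 ± 1.18 TPM (-1.87; adjusted p = 1.5e-05 and 1.68e-05). F3, tissue factor, was higher at 142 ± 2.59 TPM in Zscan4f, 104 ± 0.922 TPM in Zscan4f3A and 103 ± 5.30 TPM in control libraries (adjusted p = 0.000167).

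Genes of actin assembly and turnover were mostly higher among those that passed, with 11 of 41 tested gene IDs higher and 2 lower, beside 8.74% and 9.71% of all genes, and a median of 0.12. Ezr, which links actin to the membrane, averaged 75.6 ± 2.84 TPM in Zscan4f, 62.1 ± 1.49 TPM in Zscan4f3A and 60.5 ± 3.36 TPM in control libraries (0.32, adjusted p = 0.00329). Twf1, an actin monomer-binding twinfilin, averaged 134 ± 4.67 TPM in Zscan4f, 117 ± 2.03 TPM in Zscan4f3A and 116 ± 0.142 TPM in control libraries, and Tmod2, which caps pointed ends, 8.47 ± 0.198, 5.13 ± 0.728 and 4.92 ± 0.606 TPM (adjusted p = 0.00377 and 0.00370). Swap70, an actin-binding signalling protein, was lower at 44.2 ± 1.42 TPM in Zscan4f, 51.3 ± 0.411 TPM in Zscan4f3A and 55.9 ± 2.26 TPM in control libraries (adjusted p = 0.00131). The profilin Pfn1 and the Arp2/3 subunit Arpc4 were among the others that rose, and Lima1 was the other that fell. Coro1b is counted under 2 gene IDs.

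**Figure D4:**
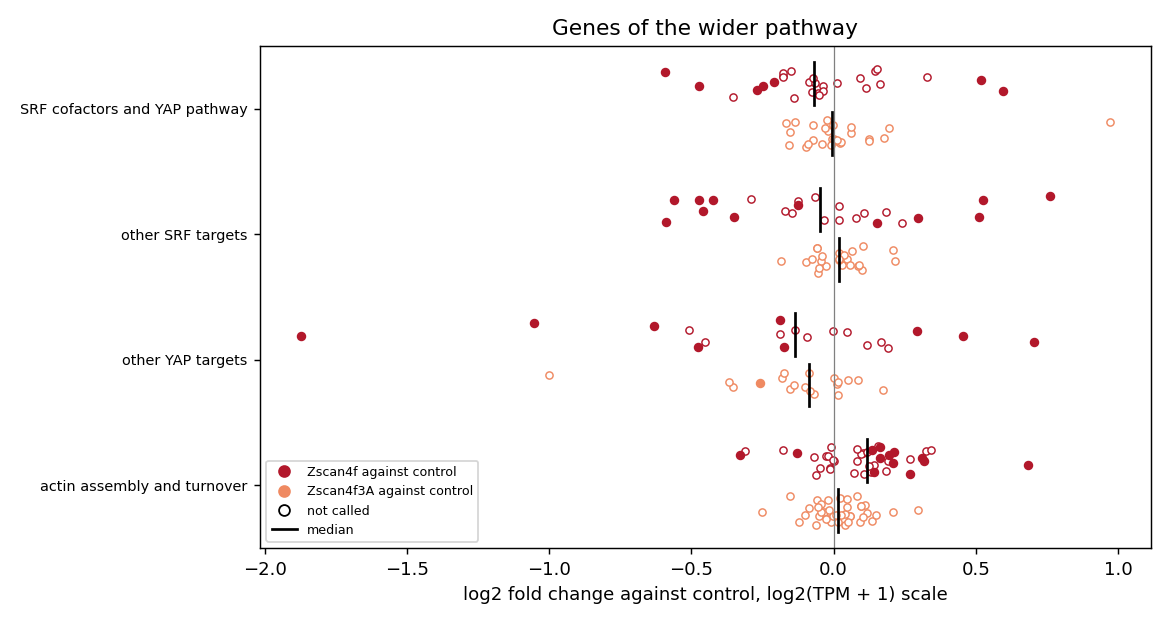
Log2 fold change against control, on the log2(TPM + 1) scale, of the genes of 4 related lists that passed the expression filter, in Zscan4f (dark red) and Zscan4f3A (orange) libraries; filled points had an adjusted p under 0.05 and black lines are medians. Filled Zscan4f points lie on both sides of 0 in every list, mostly right of it for actin assembly, and 1 Zscan4f3A point is filled.

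Between Zscan4f3A and control libraries no member passed the test. The median log2 fold change over the 38 was 0.01, beside -0.01 over all genes, and by role it was 0.00 for muscle isoforms, 0.03 for the general cytoskeleton and -0.03 for Srf and targets. At an unadjusted p under 0.05, 4 of the 38 passed in limma, beside 1389 of the 15837 genes tested: Pdlim7, Cnn2 and Tagln2 higher and Ctgf lower. Pdlim7 stood at 106, 102 and 99.9 TPM in Zscan4f, 112, 97.9 and 132 TPM in Zscan4f3A and 94.7, 92.5 and 90.3 TPM in control libraries, with a log2 difference between Zscan4f3A and control of 0.29 (adjusted p = 0.465), and of 0.18 without Zscan4f3A replicate 3. Tagln2, Cnn2 and Ctgf differed by 0.15, 0.07 and -0.09 (adjusted p = 0.561, 0.523 and 0.525), with the same sign as in Zscan4f. The 2 comparisons share the control libraries, so their shared sign has no independent weight. For the muscle isoforms that fell in Zscan4f, the 95% intervals of Zscan4f3A against control were -0.03 to 0.12 for Acta2, -0.08 to 0.13 for Tagln, -0.07 to 0.08 for Tpm2, -0.12 to 0.07 for Flnc, -0.03 to 0.37 for Actg2, -0.14 to 0.34 for Cnn1 and -0.31 to 0.19 for Myh11. Each lies above the log2 fold change of the same gene in Zscan4f against control. The genes were picked for that fall, and both comparisons share the control libraries, so this position was partly set by the choice.

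Across the 38 genes, levels differed widely: 4 averaged at least 1000 TPM (Myl6, Acta2, Actg1 and Actn4), 22 between 100 and 1000 TPM, 7 between 10 and 100 TPM, and Myh11, Mylk, Synpo2, Des and Ankrd1 under 10 TPM. Together they held 1.42 to 1.48% of all TPM in Zscan4f, 1.48 to 1.52% in Zscan4f3A and 1.47 to 1.48% in control libraries. The median coefficient of variation over the members was 3.38% in Zscan4f, 6.42% in Zscan4f3A and 4.01% in control libraries. Zscan4f3A replicate 3, the shallowest library, was the highest for 7 of the 38 genes, among them Actn1, Actn4 and Pdlim7, and the lowest for 6, among them Actb. Over all genes tested it was the highest for 15.4% and the lowest for 17.0%.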

How the data were processed

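RNA-seq of total RNA gave 1 deposited abundance table for each of 9 libraries. Reads were aligned with HISAT2 2.1.0 and abundance was estimated with StringTie, per the submitters' processing notes; its version, the genome build, the annotation and the use of strand were not given in the sources used here. TPM, as deposited by the authors, is a level per transcript length scaled to the same total. The FPKM values, also made by the authors, were used as an alternative and for depth. The deposited coverage values are mean read depth per gene, and served to estimate aligned gigabases. The files hold no counts, so precision is given as the SD over 3 libraries.

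Of 54986 gene IDs, 54079 were in a GRCm38 annotation, 97.7% of them with identical coordinates, as were 35 of the 38 members (not Acta2, Srf and Ankrd1); coordinates are those of the files.

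Log2(TPM + 1) of 15837 genes at 1 TPM or more in at least 3 libraries was fitted with limma 3.58.1 (R 4.3.3; group means over all 9 libraries, trended prior), and p-values were Benjamini-Hochberg adjusted over all genes, with a call at 0.05. Family shares were compared by two-sided exact permutation tests (scipy 1.17.1). Members and lists were chosen with earlier results of these data known, so lists are described by counts and medians. Every member is named; from each related list, up to 4 genes with the smallest p among those called in Zscan4f against control are given with values, and other genes there were named after their values were seen. 1 further list is not reported here. The code was tested on simulated data. Other settings tried were FPKM, a pseudocount of 0.1, filtering at 5 TPM or not at all, median-of-ratios scaling, quantile normalization, only the 2 groups compared, no trend, the replicate number as a block and leaving out each library. No 2 libraries were identical. Figures were drawn with matplotlib 3.10.9.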

Additional observations from a re-analysis of the deposited data

How the results depend on the processing

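Of the 14 member calls in Zscan4f against control, 12 held in each of the 18 alternatives in which the gene was tested, Cnn3 and Cyr61 being the exceptions; of the 12 calls in Zscan4f against Zscan4f3A, 9 held, all but Cnn2, Myh9 and Myh10. Myh11 was not tested with the filter at 5 TPM. No call changed sign. Without the trend, Cnn2 (adjusted p = 0.0562) and Myh9 did not pass against Zscan4f3A, which left 1 higher member. Pdlim7 passed against control in the fit of only the 2 groups compared (adjusted p = 0.0468), as did Actn4 (0.0239) and Ankrd1 (0.0258), and Cyr61 passed against Zscan4f3A under quantile normalization (0.0413). Over all genes, Zscan4f against control gave 2126 to 3285 calls when 1 library was left out, beside 2922, and Zscan4f against Zscan4f3A 1574 (without Zscan4f replicate 3) to 2168, beside 2395. Zscan4f3A against control gave 5 calls, 3 with no filter, and 1 (without control replicate 3) to 16 (without Zscan4f3A replicate 3) with 1 library left out, 0 of them members in any alternative. Under every scaling tried the median of all genes stayed within 0.015 of 0 on the log2 scale.

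The groups share replicate numbers, but same-numbered libraries did not deviate together (correlations of -0.08 to 0.05), so the numbers were not taken as pairs. With the replicate block, 2504 genes were called in Zscan4f against control, 1883 in Zscan4f against Zscan4f3A and 1 in Zscan4f3A against control; 3 members were higher and 9 lower against control.

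Zscan4f3A replicate 3 had 3.31 gigabases, the least depth, and without counts its counting error could not be given.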
